A study of Saccharomyces cerevisiae with 28 samples.

Results

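The 6 arrays of the BYxRM diploid hybrid of Saccharomyces cerevisiae were compared with each other, out of 28 Affymetrix yeast arrays in the series. They were chosen by their titles alone, numbered 1 to 6. BY is isogenic to the laboratory strain S288C and RM is a wild vineyard strain, so each hybrid cell carries 1 genome of each. All cells were in log phase, and transcript levels were given per probe set on a log2 scale. The arrays set beside the hybrids were 6 of a mixture of BY and RM mRNA in equal parts and 12 of the parents, as haploids and as diploids of each strain (3 arrays for each of BY haploid, BY diploid, RM haploid and RM diploid). The other 4 arrays, of segregants and their hybrids, were not used. The labels give neither mating types, marker mutations nor medium, and they do not say whether the hybrid arrays came from separate cultures or from 1 clone. Differences between hybrid arrays therefore include whatever differed between cultures, RNA samples or arrays. The p-values below cover the spread among these arrays and nothing beyond it.

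Values are given as deviations from the mean of the 6 hybrid arrays, over 5656 named genes with 1 probe set each. Arrays 1, 2 and 6 were also set against arrays 3, 4 and 5. The labels do not divide the arrays in this way, and the division was proposed with results of these arrays known. It is therefore a description and carries no test, and the counts drawn from it are no support for it. A gene is called higher or lower here when its 3 values on arrays 1, 2 and 6 do not overlap its 3 values on arrays 3, 4 and 5.

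Yeast cells adjust many genes together to their rate of growth. Genes for ribosome assembly, ribosomal proteins and RNA polymerases I and III are expressed most strongly in fast growth, and their transcription falls when nutrients run short or stress begins. A second group, many of them targets of the factors Msn2 and Msn4, is induced at the same time and includes HSP12, CTT1 and the enzymes of trehalose and glycogen. Biosynthetic genes follow their own regulators, such as Gcn4 for amino acids and Bas1 with Pho2 for purines.

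Growth and stress genes differed between the hybrid arrays. Arrays 1, 2 and 6 had lower levels of ribosome biogenesis genes and higher levels of stress genes than arrays 3, 4 and 5, with array 1 at one end and arrays 3 and 4 at the other. Of all genes, 644 (11.4%) were higher on arrays 1, 2 and 6 without overlap and 1319 (23.3%) were lower. These shares are the background for the counts of list members given below. The 644 became 1117 without array 5 and 1199 without array 6, and the 1319 became 2020 without array 2. Leaving out an array can only keep or raise such counts, because fewer values have to stand apart. At least 2-fold and without overlap, 64 genes (1.13%) were higher and 62 (1.1%) lower. The balance between the directions moved with scaling. Higher genes were 32.8% of the non-overlapping ones in the deposited values, 41.7% after quantile normalization and 54.7% after each array was centred on its median.

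Genes of ribosome biogenesis, which build the ribosomal subunits in the nucleolus, were the list with the most lower members. Of 123 measured, 112 were lower on arrays 1, 2 and 6 and 0 were higher, and 34 of the 62 genes lower by at least 2-fold were in this list. The 62 became 25 without array 1, 35 without array 4, 106 without array 2 and 112 without array 5. The median deviation of the list was -0.61, -0.20 and -0.47 on arrays 1, 2 and 6, against 0.55, 0.62 and 0.08 on arrays 3, 4 and 5. Array 5 was near the group mean, and it was the array of its 3 that came closest to the others. The median difference, arrays 1, 2 and 6 minus arrays 3, 4 and 5, was -0.83 for the list and -0.06 for all genes. Without arrays 1 and 6 it was -0.63. On mixture arrays 1 to 6 the list deviated from its own group's mean by -0.23, -0.08, 0.16, 0.11, -0.08 and 0.09, so that mixtures 1 to 4 had the same signs as the hybrid arrays of the same numbers. Whether a number marks a shared batch is not given in the labels and was not tested.

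NSR1, a nucleolar protein of pre-rRNA processing, had levels of 8.36, 9.07 and 8.69 on arrays 1, 2 and 6, against 10.16, 10.33 and 9.45 on arrays 3, 4 and 5. The groups did not overlap, and the difference of their means was -1.27. RRP12, needed to export the subunits, had 6.91, 7.53 and 7.12 on arrays 1, 2 and 6, against 8.67, 8.80 and 8.09 on arrays 3, 4 and 5, a difference of -1.33. Arrays 1 and 6 were the lowest for both genes and array 4 the highest.

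NOP13, an RNA-binding nucleolar protein, had 6.24, 7.64 and 7.21 on arrays 1, 2 and 6, against 8.50, 8.80 and 7.98 on arrays 3, 4 and 5. SDA1, which acts in assembly of the large subunit, had 6.22, 7.07 and 6.71, against 8.20, 8.29 and 7.65 in the same order of arrays. NOP56, a core protein of box C/D small nucleolar particles, had 8.25, 9.33 and 9.03, against 10.11, 10.35 and 9.80. In all 3 genes array 1 stood lowest and array 4 highest. The 6 mixture arrays lay between 8.30 and 8.89 for NOP13, between 7.98 and 8.62 for SDA1 and between 10.03 and 10.41 for NOP56, ranges that take in hybrid arrays 3 and 4 and lie above hybrid arrays 1, 2 and 6.

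The RNA polymerases that transcribe rRNA and tRNA followed the assembly genes. Of 27 genes for polymerases I and III, 20 were lower on arrays 1, 2 and 6 and 0 were higher, with a median difference of -0.55. RPA190, the largest subunit of polymerase I, had 7.61, 8.69 and 8.40 on arrays 1, 2 and 6, against 9.45, 9.56 and 9.14 on arrays 3, 4 and 5. RPA135, the second largest, differed by -1.24 and RPA49 by -1.19, also without overlap.

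Ribosomal proteins and translation factors moved less. Of 81 genes of cytoplasmic ribosomal proteins, 66 were lower on arrays 1, 2 and 6 and 0 higher, but none by 2-fold, and the median difference was -0.39. With shifts along the probe set numbers taken off, 39 were lower and 1 higher. Array 1 was farthest from the mean, with a median deviation of -0.46, while arrays 2 and 6 were both at -0.05. Arrays 3, 4 and 5 had 0.23, 0.27 and 0.10. RPS26B, a protein of the small subunit, had 9.67, 10.63 and 10.61 on arrays 1, 2 and 6, against 11.28, 11.41 and 10.97 on arrays 3, 4 and 5. RPL3, of the large subunit, had 12.56, 12.74 and 12.86 on arrays 1, 2 and 6, against 13.00, 13.10 and 12.91 on arrays 3, 4 and 5, a difference of -0.28. Of 31 translation factors 25 were lower and 0 higher, RPG1 (a subunit of initiation factor eIF3) by -0.81. Of 60 small nucleolar and nuclear RNA genes 26 were lower and 0 higher, with a median difference of -0.27.

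**Figure D1:**
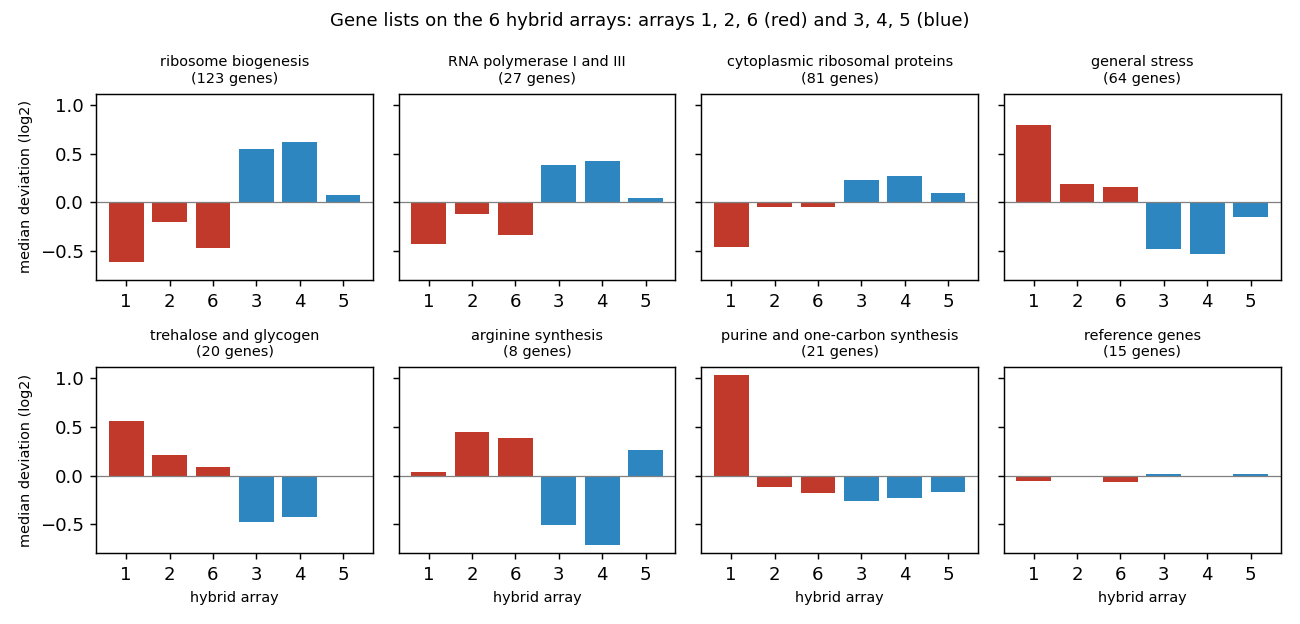
Median deviation from the hybrid group mean (log2, vertical axis) of 8 gene lists on each hybrid array, with arrays 1, 2 and 6 in red and arrays 3, 4 and 5 in blue. Ribosome biogenesis runs between -0.61 on array 1 and 0.62 on array 4, general stress runs the other way, purine synthesis is apart on array 1 alone and the reference genes stay near 0.

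General stress genes were the mirror image. Of 64 measured, 51 were higher on arrays 1, 2 and 6 and 1 was lower, and 25 of the 64 genes higher by at least 2-fold were in this list. The 64 became 106 without array 5. The median deviation was 0.79, 0.19 and 0.16 on arrays 1, 2 and 6, against -0.48, -0.53 and -0.15 on arrays 3, 4 and 5. The order of the arrays was the reverse of that for ribosome biogenesis, except that arrays 2 and 6 changed places. The median difference was 0.78 and was 0.52 without arrays 1 and 6.

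FMP16, a mitochondrial protein of unknown role, had the largest positive difference among the genes that the naming rule covers. Its levels were 11.78, 10.26 and 10.10 on arrays 1, 2 and 6, against 8.49, 8.41 and 9.45 on arrays 3, 4 and 5, a difference of 1.93. DDR2, a small stress protein, had 13.04, 11.88 and 11.88 on arrays 1, 2 and 6, against 10.41, 10.03 and 11.13 on arrays 3, 4 and 5. HSP12, a membrane-stabilising heat shock protein, had 13.73, 12.86 and 12.81, against 11.66, 11.51 and 12.22. Each of these genes was highest on array 1 and lowest on array 4, with array 5 between the rest.

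CTT1, the cytosolic catalase, had 11.43, 10.71 and 10.64 on arrays 1, 2 and 6, against 9.35, 9.34 and 10.24 on arrays 3, 4 and 5. ALD3, an aldehyde dehydrogenase, differed by 1.73, TFS1, an inhibitor of carboxypeptidase Y, by 1.62, and SOL4, of the pentose phosphate pathway, by 1.51. HSP26, a small heat shock protein, followed another pattern. It had 10.17, 8.20 and 8.07 on arrays 1, 2 and 6, against 7.70, 7.53 and 8.12 on arrays 3, 4 and 5, so that it was apart on array 1 and arrays 5 and 6 overlapped.

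The reserve carbohydrates followed the stress genes. Of 20 trehalose and glycogen genes, 15 were higher on arrays 1, 2 and 6 and 0 lower, with a median difference of 0.60. GSY2, glycogen synthase, had 12.06, 11.43 and 11.50 on arrays 1, 2 and 6, against 10.31, 10.40 and 11.13 on arrays 3, 4 and 5. GDB1, the debranching enzyme of glycogen, differed by 1.18, GPH1, glycogen phosphorylase, by 0.99 and TPS1, which makes trehalose phosphate, by 0.84, all without overlap. TSA2, a peroxiredoxin, and NDE2, the external NADH dehydrogenase, were also higher by 1.53 and 1.37.

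Chaperones as a list did not share this direction. Of 39 genes of heat shock and chaperones, 4 (10.3%) were higher and 6 (15.4%) lower, with a median difference of 0.02. On array 1 their median deviation was 0.28, and 32 (82.1%) were above the group mean, against 46.3% of all genes. SSE2, a nucleotide exchange factor of Hsp70, was higher by 1.00, while ZUO1, a chaperone on the ribosome, was lower by -0.80. SSA4, a heat-induced Hsp70, had 9.53, 7.80 and 7.73 on arrays 1, 2 and 6, against 7.50, 7.53 and 7.83 on arrays 3, 4 and 5, so it stood out on array 1 and otherwise overlapped. HSP104, the disaggregase, had 11.04 on array 1, against 10.05 to 10.33 on the other 5. The proteasome list had 1 gene higher and 1 lower among 40, but its genes moved together on single arrays. On array 1, 38 (95.0%) were above the group mean, against 46.3% of all genes. On array 6, 3 (7.5%) were above it, against 27.7% of all genes. The median deviation of the list was 0.14 on array 1 and -0.14 on array 6.

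**Figure D2:**
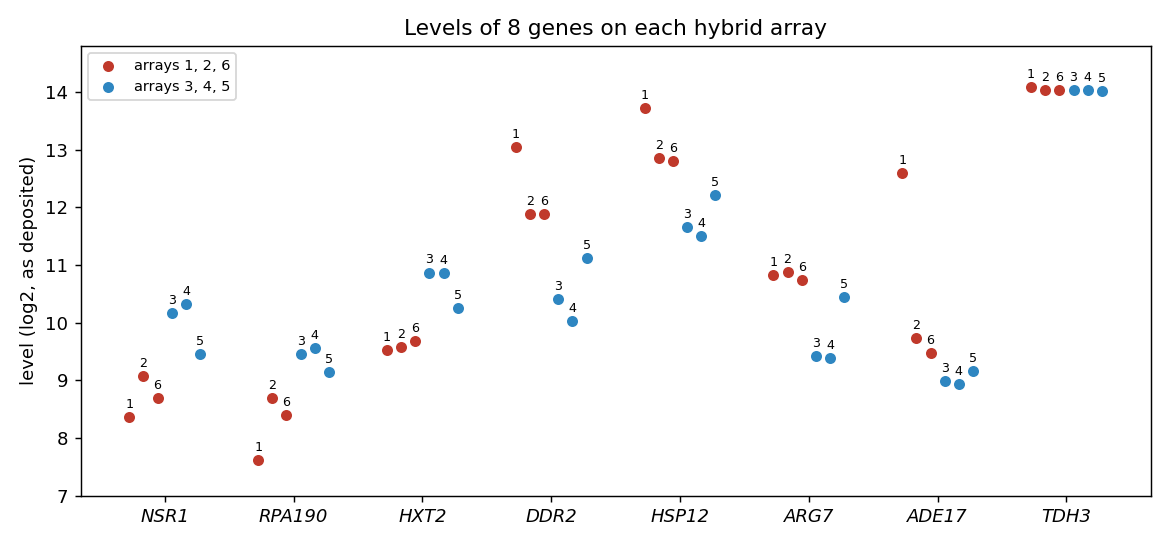
Levels (log2, as deposited, vertical axis) of 8 genes on each hybrid array, numbered, with arrays 1, 2 and 6 in red and arrays 3, 4 and 5 in blue. NSR1, RPA190 and HXT2 are lower on arrays 1, 2 and 6 and DDR2, HSP12 and ARG7 higher, ADE17 is at 12.60 on array 1 alone, and TDH3 lies between 14.01 and 14.08 on all 6.

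Purine and one-carbon genes as a list were highest on array 1. The median deviation of 21 genes was 1.03 on array 1 and between -0.26 and -0.12 on the other 5. Of the 21, 12 were at least 2-fold above the mean of the other arrays on array 1 and well separated from each of them, while over all genes 36 (0.636%) were high on array 1 in this way. ADE17, which catalyses the last steps to IMP, had 12.60, 9.74 and 9.48 on arrays 1, 2 and 6, against 8.98, 8.93 and 9.16 on arrays 3, 4 and 5. ADE1, an enzyme of the same pathway, had 12.09, 9.29 and 9.20 on arrays 1, 2 and 6, against 9.07, 9.08 and 8.98 on arrays 3, 4 and 5. MTD1, a dehydrogenase of tetrahydrofolate, had 11.04, 8.76 and 8.59, against 8.42, 8.29 and 8.29. Array 1 stood above their mean by 3.34 for ADE17, 2.97 for ADE1 and 2.57 for MTD1.

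Arrays 1, 2 and 6 also stood apart from arrays 3, 4 and 5 for part of the list, with 8 of the 21 genes (38.1%) higher on arrays 1, 2 and 6 without overlap and 6 (28.6%) lower.

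ADE2 stood 2.51 above the mean of the other arrays on array 1. So did GCV1 by 2.29 and GCV2 by 1.85, both of the glycine cleavage complex, ADE4, the first enzyme of the pathway, by 1.97, and ADE13 by 1.81. GCV1, GCV2, ADE4 and ADE13 were chosen for naming after their values were seen. The mixture arrays ranged only between 8.86 and 9.01 for ADE17 and between 8.74 and 8.93 for ADE2.

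Among the genes with the largest negative differences were 2 of purine metabolism. IMD4, IMP dehydrogenase, which leads to GMP, had 8.80, 9.64 and 9.64 on arrays 1, 2 and 6, against 10.94, 10.94 and 10.35 on arrays 3, 4 and 5. AAH1, adenine deaminase, had the largest negative difference among the genes that the naming rule covers. It had 5.85, 6.79 and 6.59 on arrays 1, 2 and 6, against 8.44, 8.70 and 7.55 on arrays 3, 4 and 5, a difference of -1.82.

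Pyrimidine genes split. Of 13, 6 (46.2%) were lower on arrays 1, 2 and 6 and 2 (15.4%) higher. URA7, CTP synthase, differed by -1.15 and URA1, dihydroorotate dehydrogenase, by -1.20. URA10, the minor isozyme of orotate phosphoribosyltransferase, had 10.89, 9.73 and 9.64 on arrays 1, 2 and 6, against 8.10, 8.14 and 9.08 on arrays 3, 4 and 5, and so followed the stress genes.

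Arginine and lysine synthesis divided the arrays in another way, with arrays 3 and 4 below the other 4. The median deviation of 8 arginine genes was 0.04, 0.45 and 0.39 on arrays 1, 2 and 6, against -0.51, -0.71 and 0.26 on arrays 3, 4 and 5. ARG1, argininosuccinate synthetase, had 13.24, 13.23 and 13.08 on arrays 1, 2 and 6, against 12.22, 11.98 and 12.99 on arrays 3, 4 and 5. ARG7, of ornithine synthesis, had 10.83, 10.88 and 10.74, against 9.42, 9.38 and 10.45. Array 5 was close to arrays 1, 2 and 6 in these genes and 3 of the 8 were higher without overlap, 0 lower.

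CPA1, the small subunit of carbamoyl phosphate synthetase, had 12.24, 12.76 and 12.61 on arrays 1, 2 and 6, against 11.66, 11.42 and 12.46 on arrays 3, 4 and 5. Here array 5 was above array 1. LYS1, the last step to lysine, had 9.71, 9.71 and 9.45, against 8.46, 8.15 and 9.33. HIS4, of histidine synthesis, had 12.40, 12.01 and 12.03, against 10.66, 10.35 and 11.67. PCL5, a cyclin known to act in the turnover of Gcn4, had 9.95, 10.81 and 10.83 on arrays 1, 2 and 6, against 10.11, 9.60 and 10.73 on arrays 3, 4 and 5, with array 1 beside arrays 3 and 4. The leucine and sulfur lists did not share this order, since array 6 was lowest for leucine and branched-chain genes (-0.09) and array 1 for sulfur amino acid genes (-0.11). Of 38 genes of other amino acids 12 (31.6%) were higher and 3 (7.89%) lower. Among 13 leucine and branched-chain genes 4 (30.8%) were higher and 2 (15.4%) lower.

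Sugar transport and the cell cycle showed smaller differences. HXT2, a high-affinity glucose transporter, had 9.52, 9.57 and 9.68 on arrays 1, 2 and 6, against 10.87, 10.86 and 10.26 on arrays 3, 4 and 5. HXT3, of low affinity, differed by -0.72 without overlap. Of 17 transporter genes 5 (29.4%) were lower and 1 (5.88%) higher, against 23.3% and 11.4% of all genes. Of 36 G1 and S phase genes 15 were lower and 0 higher, with CLN2, a G1 cyclin, at -0.40 and RNR1, ribonucleotide reductase, at -0.61. Of 74 mitochondrial ribosomal protein genes 27 (36.5%) were lower and 2 (2.7%) higher, at a median of -0.12.

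The 19 mitochondrially encoded features were low on arrays 1 and 6, with median deviations of -0.21, 0.17 and -0.32 on arrays 1, 2 and 6, against 0.13, 0.08 and 0.10 on arrays 3, 4 and 5. COB, cytochrome b, had 8.34, 8.65 and 7.97 on arrays 1, 2 and 6, against 8.78, 8.96 and 8.88 on arrays 3, 4 and 5. Of 28 respiratory chain genes, nuclear except for COB, 8 (28.6%) were higher and 2 (7.14%) lower, COB among the lower. The 16 nuclear chromosomes showed no large shift, their medians spanning between 0.07 and 0.25 over the 6 arrays.

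The remaining lists had median differences between -0.20 and 0.37. Of 39 genes of the TCA and glyoxylate cycles 13 (33.3%) were higher and 2 (5.13%) lower, at a median of 0.14. Among 39 cell wall genes 11 (28.2%) were higher and 6 (15.4%) lower. Of 30 sterol genes 14 were lower and 1 higher, at a median of -0.15. Of 9 lysine genes 2 (22.2%) were higher and 0 lower, at a median of 0.37. Among 34 sulfur amino acid genes 4 (11.8%) were higher and 7 (20.6%) lower, close to the shares of all genes. In the lists not described singly the median difference lay between -0.20, for histones, and 0.13, for seripauperins and COS genes.

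Some genes had a narrow range. TDH3, the main glyceraldehyde phosphate dehydrogenase, ranged between 14.01 and 14.08 on the 6 hybrid arrays, from a probe set that can share sequence with its relatives. CYC1, cytochrome c, ranged between 12.33 and 12.62, and PHO84, the phosphate transporter, between 6.18 and 6.35, which is under the level of 6.46 that marks the dimmest 25% of probe sets. Of 15 reference genes 2 (13.3%) were higher and 3 (20.0%) lower, shares close to those of all genes, with a median difference of -0.07.

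The fixed markers of haploid cells were on average lower on the hybrid arrays than on haploid arrays. The mean level of the 7 a-cell markers was between 6.57 and 6.78 on the hybrid arrays, against 10.1 to 10.2 on the RM haploid arrays. The 4 alpha-cell markers were at 7.04 to 7.31 on the hybrid arrays, against 11.8 or more on the BY haploid arrays. For haploids of either type 8 markers averaged 6.35 to 6.91 on the hybrid arrays, against 8.53 to 8.73 in BY haploids, and 7 sporulation markers averaged 6.42 to 6.63, against 6.58 to 6.80 in RM haploids. Single members stood apart from these means. MFA1, the precursor of a-factor, was above the mean of its markers, with 9.13 to 9.72 on the hybrid arrays. It was still below the mixtures, at 10.35 to 11.02, and its probe set can share sequence with relatives. FUS3 had 9.12 on array 6 and 5.96 to 6.26 on the others, against 8.24 to 8.69 on the mixtures. In the wider list of 47 meiosis and sporulation genes 4 were high on array 6 alone, among them SPR1 with 8.98, SPO19 with 8.55 and MSH5 with 8.60. Over all genes 105 (1.86%) were high on array 6 alone. FUS3 and these 4 belong to that set, which is described below by probe set number.

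Genes that differ between the parents placed the hybrid arrays at different points between them. Over 264 single-gene probe sets that differed at least 2-fold between RM and BY diploids in limma, with BY set to 0 and RM to 1, the median position was 0.74, 0.86 and 0.86 on arrays 1, 2 and 6, against 0.54, 0.49 and 0.79 on arrays 3, 4 and 5. The difference lay in the 153 probe sets higher in RM, at 1.01, 1.04 and 0.96 on arrays 1, 2 and 6, against 0.66, 0.61 and 0.94 on arrays 3, 4 and 5. The 111 lower in RM had 0.44, 0.36 and 0.52 on arrays 1, 2 and 6, against 0.35, 0.36 and 0.37. Without the stress, trehalose and amino acid lists, 116 of those higher in RM had 0.95, 1.01 and 0.92, against 0.70, 0.62 and 0.90. Only these lists were taken out, and the cause of the difference was not tested.

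**Figure D3:**
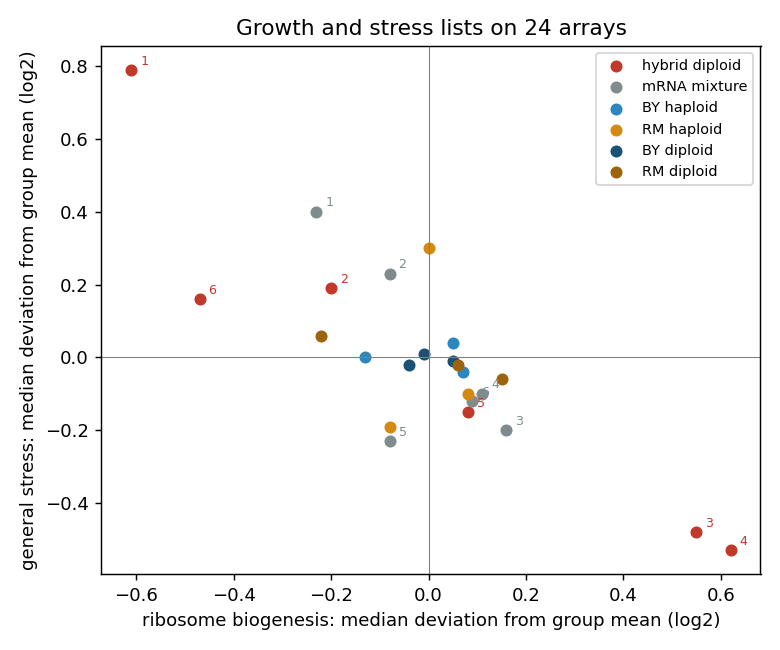
Median deviation from the own group's mean of ribosome biogenesis genes (log2, horizontal axis) and general stress genes (log2, vertical axis) on each array of 6 groups, with hybrid and mixture arrays numbered. Hybrid arrays 1, 3 and 4 lie farthest out, at opposite ends, and the lists span 1.23 and 1.32 over the hybrids, against 0.39 and 0.63 over the mixtures.

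The spread of the growth and stress lists over the hybrid arrays was set beside that in the other groups. The median of ribosome biogenesis genes spanned 1.23 over the 6 hybrid arrays, against 0.39 over the 6 mixtures and 0.09 to 0.37 in the parental groups of 3. General stress spanned 1.32 over the hybrids, against 0.63 over the mixtures and 0.03 to 0.49 in the parents. Trehalose and glycogen genes spanned almost as much in the mixtures, 1.03 over the hybrids and 0.93 over the mixtures. Purine genes spanned 1.29 over the hybrids and 0.15 over the mixtures. Some other lists spanned more over the mixtures. Mitochondrially encoded features spanned 0.49 over the hybrids and 0.71 over the mixtures, and respiratory chain genes 0.22 and 0.42. The median SD over all named genes was 0.171 in the hybrids and 0.203 in the mixtures, with mixture array 5 included. A group of 6 tends to a wider span than a group of 3 by its size alone.

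Gene by gene, the size of the deviations was tested with limma on absolute deviations, corrected for group size. Against the 4 parental groups 231 genes (4.08%) were more variable in the hybrids and 7 (0.124%) less, at a Benjamini-Hochberg adjusted p under 0.05 over 9274 probe sets. Ribosome biogenesis gave 55 of its 123 genes, arginine synthesis 6 of 8, general stress 15 of 64, other amino acids 9 of 38 and RNA polymerases 7 of 27. Purine synthesis gave 0 of 21 and ribosomal proteins 1 of 81. An F test of variances, added after the data were seen, called 356 genes (6.29%) more variable and 38 (0.672%) less. Among the more variable were 45 of ribosome biogenesis, 20 of general stress and 11 of the 21 purine genes. A single outlying array can raise a variance, and the calls included genes high on array 6 alone, described below. Examples were PPM2 (F test adjusted p = 0.0045) and GAL1 (F test adjusted p = 0.004).

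For RRP12 the mean absolute deviation was 0.73 in the hybrids and 0.0932 in the parental groups, a difference of 0.64 ± 0.10 (SE, limma adjusted p = 0.0073). For DDR2 it was 0.955 and 0.234, a difference of 0.72 ± 0.17 (limma adjusted p = 0.033). MET17, homocysteine synthase, had 0.427 and 0.0993 (limma adjusted p = 0.0073), and URA7 had 0.632 and 0.0626 (limma adjusted p = 0.012). ADE17, with 1.02 and 0.0551, did not pass with limma (adjusted p = 0.07) and did with the F test (adjusted p = 3.5e-05). ERG9, squalene synthase, was among the less variable genes, at 0.0292 in the hybrids and 0.225 in the parental groups (limma adjusted p = 0.028).

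These counts depended on the arrays used. Over all probe sets 261 (2.81%) were more variable and 27 (0.291%) less. Without array 3 or array 4 the 261 became 37 and 27, and without array 2 or array 5 they became 642 and 802. With parental diploids alone as the other group 2 were called, and with parental haploids alone 0 (1957 at an unadjusted p under 0.05). Against the mixtures limma called 0 more and 0 less variable (905 at an unadjusted p under 0.05). The F test called 67 (0.722%) more and 208 (2.24%) less variable probe sets there, and without mixture array 5 it called 84 and 2.

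**Figure D4:**
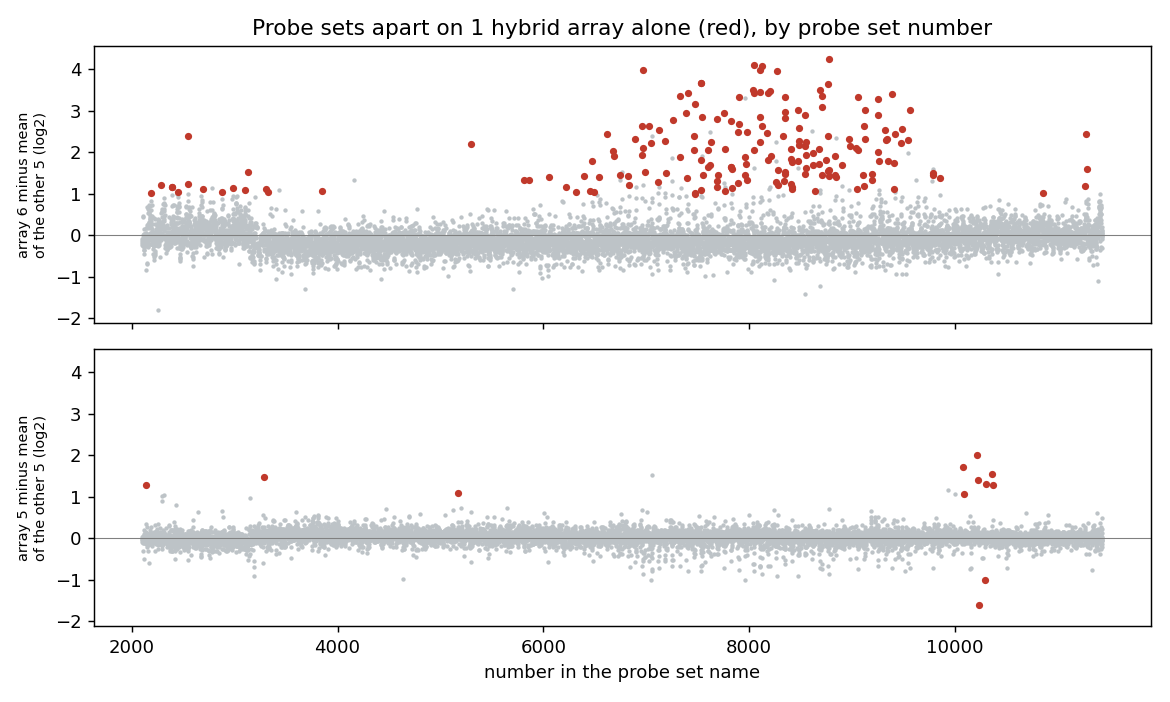
Departure of hybrid array 6 (top) and hybrid array 5 (bottom) from the mean of the other 5 hybrid arrays (log2, vertical axis) for each probe set, by the number in its name. Red points depart by at least 2-fold and stand apart from all other arrays. On array 6 most of the 185 high ones lie at intermediate numbers, and on array 5 most of the 12 lie just above 10000.

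Array 6 had a second pattern that the growth and stress genes do not describe. On this array 185 probe sets (1.99%) were at least 2-fold above the mean of the other 5 and well separated from each of them, against 44 (0.474%), 10 (0.108%), 10 (0.108%), 7 (0.0755%) and 10 (0.108%) such probe sets on arrays 1 to 5. They included 105 named genes (1.86%). PPM2, a tRNA methyltransferase, had 9.62 on array 6 and 5.97 to 6.34 on the others. GAL1, galactokinase, had 9.39 on array 6 and 5.93 to 6.18 on the others. FRE3, a ferric reductase, had 9.42 on array 6 and 5.64 to 6.32 on the others, and ULS1 had 10.05 on array 6 and 6.62 to 6.83 on the others.

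These probe sets lay near each other in number. Of the 185, 120 had another within 2 numbers in the probe set names, against 0 of those high on arrays 1 to 5. The sets on arrays 1 to 5 were much smaller, so few neighbours were likely in them by size alone. Of the 190 that departed in either direction 114 lay between numbers 7000 and 9000, where 21.6% of all probe sets lie, a window chosen after the values were seen. GAL1 and GAL10 are numbered 7333 and 7332, FRE3 and FIT2 8180 and 8181, and SPR1, ULS1 and THI72 8346, 8347 and 8349. HST3 (8543) was 2.89 above the others on array 6, and STI1 (8545), a co-chaperone, was 1.42 below. Neighbours in number are also neighbours in the genome in many cases, since 97.8% of consecutive named genes lay on the same chromosome. GAL10 was chosen for naming after its value was seen.

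Where a gene had several probe sets, mostly 1 of them departed. Of 9 such genes, 8 had 1 departing probe set. FUS3, a kinase of the mating pathway, had departures of 0.77, 0.67 and 2.95 for its 3 probe sets. For THI72 both departed. The files give no positions on the array surface, and the cause of the pattern was not tested.

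Smaller shifts ran along the probe set numbers too. On array 6 the median deviation was -0.16 for numbers 3000 to 3999 and 4000 to 4999 and 0.00 for 10000 to 10999. With the median of each such block of numbers taken off on each array, an alternative added after the values were seen, the median difference was -0.76 for ribosome biogenesis, with 106 genes lower, and 0.85 for general stress, with 56 higher.

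Array 5 had a small set apart, mostly in 1 range of numbers. Of its 12 probe sets apart (0.129%), 9 lay between numbers 10000 and 11000, a window chosen after the values were seen. That window holds 1001 of the 9274 probe sets. Unlike on array 6, 0 of the 10 high and 0 of the 2 low ones had another of their direction within 2 numbers. In sets this small few neighbours were likely by size alone. RPL10, of the large ribosomal subunit, had 11.94 on array 5 and 13.37 to 13.64 on the others. PDC1, pyruvate decarboxylase, had 12.71 on array 5 and 13.64 to 13.84 on the others. CMG1 had 8.75 on array 5 and 6.74 to 7.37 on the others.

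Arrays 3 and 4 had similar deviations across genes (r = 0.79). Array 1 ran against array 3 (r = -0.71) and array 4 (r = -0.68), and arrays 1 and 6 correlated at 0.05. Array 2 correlated with arrays 1 and 6 at 0.28 and -0.14, and with arrays 3, 4 and 5 at -0.37, -0.47 and 0.12. Across all genes it was thus nearer to array 5 than to array 6. Deviations from a shared mean lean to negative correlations, and genes are not independent. In a decomposition of the deviations the first component held 58.2% of the variation, with weights of 0.56, 0.09 and 0.44 on arrays 1, 2 and 6, against -0.46, -0.50 and -0.13 on arrays 3, 4 and 5. The second held 28.2% and set array 1 (0.59) against array 6 (-0.79). Arrays 2 and 5 had small weights in both. Without the 105 genes high on array 6 alone the components held 66.0% and 18.5%.

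Over all genes the root mean square deviation from the group mean was 0.381, 0.169 and 0.379 on hybrid arrays 1, 2 and 6, and 0.268, 0.290 and 0.142 on arrays 3, 4 and 5. It averaged 0.271 ± 0.101 in the hybrids and 0.235 ± 0.151 in the mixtures (SD, n = 6 each), which did not differ beyond the spread (two-sided exact permutation test over 924 arrangements, p = 0.656). The 12 parental arrays averaged 0.184 ± 0.0573 (SD, n = 12), and the hybrids were above them by 0.088 (exact permutation test, p = 0.0371, and 0.0742 adjusted over both tests). Against parental diploids alone the difference was 0.116 (exact permutation test, p = 0.0303), and against haploids alone 0.0603 (exact permutation test, p = 0.206). Deviations within a group depend on each other, while the tests treat all arrays as exchangeable, so the p-values of these distances are approximate. Mixture array 5 was at 0.540. Without it the mixtures averaged 0.141 and the difference from the hybrids was 0.131 (exact permutation test, p = 0.00866). Mixture array 5 had the largest deviation of the mixtures, so leaving it out had to lower their mean. With hybrid array 6 left out as well, the difference was 0.101 (exact permutation test, p = 0.0476). The difference from the parental arrays was 0.0591 without hybrid array 1 (exact permutation test, p = 0.162) and 0.058 without hybrid array 6 (exact permutation test, p = 0.179). Both arrays had the largest deviations of the hybrids, so leaving them out had to lower the mean.

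**Figure D5:**
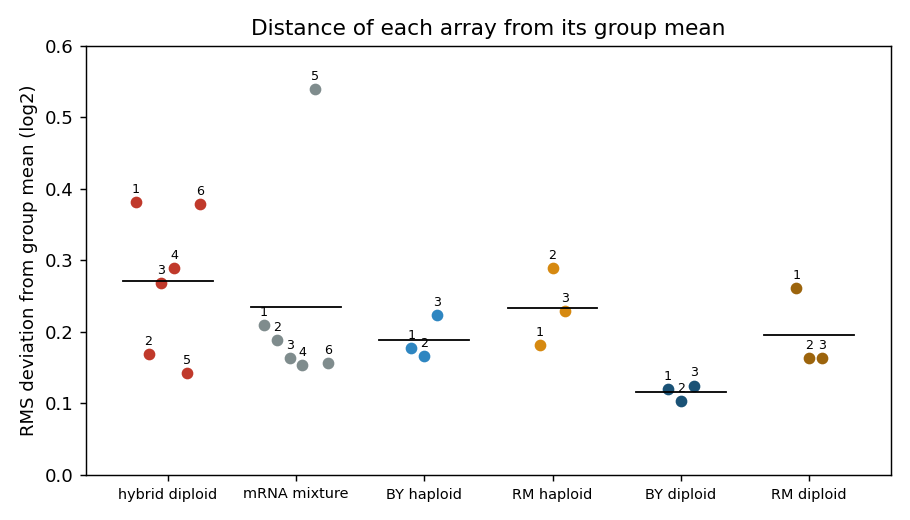
Root mean square deviation of each array from the mean of its group over 5656 genes (log2, vertical axis, corrected for group size), with group means as lines and array numbers above the points. Hybrid arrays 1 and 6 are at 0.381 and 0.379, above every parental array, and mixture array 5 is at 0.540.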

How the data were processed

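The authors deposited 1 level per probe set and array, judged here to be on a log2 scale from their range up to 14.67. How they were summarised and scaled is not stated in the labels or headers, and they come without detection calls. Array medians of the hybrids lay between 7.38 and 7.49, and no further scaling was applied. Columns without a sample numbered 0. No hybrid pair shared more than 3.00% identical values, so each array counted once.

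Of 9335 probe sets, 60 controls and 1 at 0 on every array were left out. The platform annotation gave 6504 of the remaining 9274 a single gene, 328 several and 2442 none, and all 6504 matched the R64 reference annotation. The probe set with the highest mean over all arrays stood for each of 5656 genes. Probe sets ending in f_at, i_at, s_at, r_at or g_at can share sequence with relatives (TDH3, THI72 and others), so these genes are uncertain.

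The members, the 49 gene lists and the division of the hybrid arrays were chosen with earlier results of these data known. Spread was tested with limma 3.58.1 under R 4.3.3 (linear fits with eBayes on absolute deviations from the group mean, corrected for group size, two-sided), and distances with exact permutation tests in scipy 1.17.1. A well separated array had a gap to the nearest other array beyond Dixon's limit. On simulated data with 9274 probe sets, where 100 had an SD raised 8-fold, limma recovered 48% against the parental groups and 7% against the mixtures, with 11.8% and 25% of all calls false. An F test, added after the data were seen, recovered 90% and 60%, with 3.76% and 4% false. For an SD raised 4-fold limma recovered 42% and 5% and the F test 38% and 12%. The simulated noise was normal and independent, with no outlying array, so these shares do not cover genes apart on a single array.

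Named genes were, by rule, the largest differences between arrays 1, 2 and 6 and arrays 3, 4 and 5, the largest SDs, the largest departures of each array, the most significant genes for spread, up to 4 members of each list and a fixed marker set. The text names part of them, and 5 further genes were chosen after their values were seen. Alternatives were median centring, quantile normalization, a floor at 5.73 (percentile 10), a test without the dimmest 25% of probe sets, a variance trend, deviations from the median, a replicate block, all single-gene probe sets and leaving out arrays. Plots were made in matplotlib 3.10.9 (Python 3.11.15).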

Additional observations from a re-analysis of the deposited data

Results flagged for a closer look

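In each result below 1 array lay far from the other 5 of its group, by Dixon's criterion, which chance meets in about 5% of groups. Many of the genes were named because they stood apart on 1 array, so their number has no meaning. The values are the gaps on the log2 scale to the nearest other array. For the distance of the mixture arrays from their mean the gap was 0.331, on mixture array 5.

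On hybrid array 1 the gap was 1.15 for the median of purine and one-carbon genes, 2.86 for ADE17, 2.80 for ADE1, 2.28 for MTD1, 2.12 for ADE2, 1.94 for GCV1, 1.81 for ADE4, 1.60 for GCV2 and 1.59 for ADE13. The stress genes apart on that array were HSP26 (1.97), SSA4 (1.70) and HSP104 (0.71). RPS7B was below the others by 1.03 and LEU2 above by 0.28. Among list medians the gaps were 0.11 for ATP synthase, 0.19 for unfolded protein response and 0.19 for meiosis and sporulation, the last downward.

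On hybrid array 6 the gap was 3.28 for PPM2, 3.22 for ULS1, 3.21 for GAL1, 3.10 for FRE3, 2.86 for FUS3, 2.71 for HST3, 2.67 for SPR1, 1.88 for GAL10, 1.69 for FIT2 and 1.42 for THI72. STI1 was lower by 1.15, and the median of the phosphate regulon was lower by 0.14. On hybrid array 5 the gap was 1.43 for RPL10 and 0.93 for PDC1, both lower, and 1.38 for CMG1, 1.07 for LOT6 and 0.91 for VPS34, which were higher. Array 2 was apart for SLI15 (0.85), array 3 for VPS3 (1.38) and array 4 for SAM2, which was lower by 0.74. The causes were not tested.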

How the results depend on the processing

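Of the summary values under other settings, 206 stayed on the same side of their limits or within their spread. Those that did not follow here, and the cause was not tested. Of 1173 values of single genes 1147 kept direction and size, 25 moved by more than the spread and 1 reversed, ERG9 to 0.02 after median centring. The genes higher without overlap became 1141 after median centring and 1837 without arrays 1 and 6. Those past 2-fold then became 29 higher and 8 lower. Leaving out 1 hybrid array at a time gave 673 to 1199 genes higher and 1459 to 2020 lower. Counts without overlap can only stay or rise when arrays are left out. Past 2-fold, leaving out 1 hybrid array gave 45 to 106 higher and 25 to 112 lower.

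The distance of hybrids minus mixtures was -0.0509 without hybrid arrays 1 and 6, 0.101 without hybrid array 6 and mixture array 5, and 0.00613 to 0.131 over single arrays left out. Hybrids minus parental arrays gave 0.0773 after quantile normalization, 0.0679 without the genes high on array 6 alone, 0.0603 against parental haploids alone, 0.000935 without hybrid arrays 1 and 6, and 0.058 to 0.121 with 1 hybrid array left out.

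Probe sets more variable than in the parental groups numbered 444 by the F test, 2 against parental diploids and 0 against parental haploids (0 less variable in both), and 27 to 802 without 1 hybrid array. Those less variable numbered 83 by the F test, 42 after median centring, 144 with the floor and 0 to 48 without 1 array. Against the mixtures median centring gave 1 more variable, the F test 67 more and 208 less, and without mixture array 5 84 more and 2 less. Leaving out 1 array at a time gave 0 to 9 more and 0 to 1 less variable.

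Hybrid and mixture arrays share the numbers 1 to 6. Deviations of same-numbered arrays correlated at 0.46, 0.21, 0.22, 0.24, -0.24 and -0.11 across probe sets, and 1 of 6 hybrid arrays correlated best with its own number, so the numbers were not taken as pairs. Hybrid arrays 1 and 2 correlated with mixtures 1 and 2 at 0.21 to 0.46 and hybrid arrays 3 and 4 with mixtures 3 and 4 at 0.22 to 0.37. Hybrid array 6 correlated best with mixture array 5, at 0.35. Whether any of these arrays share a batch was not tested. With the replicate block limma called 0 more and 0 less variable (757 at an unadjusted p under 0.05). The number of arrays limits the precision, dim probe sets come with no bound, and promoter motifs were not analysed here.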
